A study of Schizosaccharomyces pombe with 8 samples.

Results

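RNA that came down with Lsm8 in fission yeast (Schizosaccharomyces pombe) was compared with RNA from a control immunoprecipitation (IP), gene by gene. A gene was included when its RNA was read at least once with Lsm8 and at least 10 times in the control IP. This held for 5523 of the 7014 genes in the table. The study used this IP to find the RNAs that associate with Lsm8. The Lsm8 IP was made with anti-c-Myc beads from an h- strain with lsm8::lsm8-myc13-natMX6, in which Lsm8 carries a c-Myc tag at its own locus. This strain also has the alleles his3-D1 and ura4-D18 together with leu1-32 and ade6-M216. The strain behind the control IP is not given in the sources used here. The pof8 deletion experiment of the same series was not used. Each side was 1 library of 40 bp unstranded reads, so the values compare 2 libraries and have no replicate check and no test.

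Lsm proteins form rings of related subunits on RNA. The Lsm2-8 ring, of which Lsm8 is the subunit not shared with the cytoplasmic Lsm1-7 ring, sits in the nucleus and binds the uridine-rich 3′ end of the U6 small nuclear RNA (snRNA). U6 pairs with U4 and joins U5 in the tri-snRNP, the particle that enters the spliceosome. U1 and U2 recognise the 5′ splice site and the branch site of an intron, and they carry Sm rings instead of Lsm rings, as do U4 and U5. In fission yeast Lsm2-8 also binds the mature telomerase RNA, TER1. U3 belongs to a nucleolar particle that processes ribosomal RNA.

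The 30 bases around the annotated 3′ end of each gene with the snRNA prefix are shown because a uridine-rich end is the known binding site of Lsm2-8. Each line holds the last 15 annotated bases and the 15 genomic bases after them, 5′ to 3′ on the gene's strand, from RefSeq ASM294v3, with the longest run of T in capitals. snu6 encodes U6, snu4 U4, snu2 U2, snu5 U5 and snu1 U1, while snu32 and snu3 encode forms of U3.
snu6: attgagagaaaacccaTTTTTTTTTctaaa
snu4: ataTTTggaaaccaacttattgcaataact
snu2: gcaagcgacgccgaatcTTcttctgttgac
snu5: tcTTTTTcttgaaacatttatttgtttcgg
snu1: cctcatttggggcaaTTTTactaattaagg
snu32: gTTTTctgacgtgttttctgtacatttctt
snu3: cgaTTTcaaattccgttagattgtttgatt
Only snu6 among these 7 has a run of 9 T (TTTTTTTTT), which begins at the second base after the annotated end. Runs of T on the gene's strand that were at least this long stood in the same window of 41 of the 5476 genes matched to RefSeq, or 0.749%. Those 41 genes had a median ratio of 0.877 between the IPs, and the median over all 5523 genes was also 0.877. Besides snu6, pof2, an F-box protein gene with 360 and 29 reads, and rim1, with 331 and 29 reads, were the genes of the 41 with a ratio above 4. The median of genes with such a run was thus that of all members, and 8 of the 41 had a ratio above 2, or 19.5% beside 11.3% of all members.

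The Lsm8 library held 6604836 reads over the listed genes, and 942080 control reads could be worked back. The included genes took 99.7% of the Lsm8 reads and 99.6% of the control reads. Counts were divided by the library's median count among genes that were read, which was 108 for Lsm8 and 43 for the control, and the ratio of these normalized counts is called the ratio below. A gene had a median of 133 Lsm8 reads and 53 control reads, so the control IP held the fewer reads behind a typical ratio. For genes with 10 to 29 control reads the upper bound of the 95% interval was in the median 3.13 times the lower bound, and 1.15 times for genes with at least 1000 control reads. Intervals are exact Clopper-Pearson intervals and cover counting error only.

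Most RNAs were near the middle of the distribution. The median ratio was 0.877, with quartiles of 0.590 and 1.34. A ratio above 2 was found for 625 of 5523 RNAs (11.3%) and a ratio below 0.5 for 963 (17.4%). Farther out, 126 RNAs were above 4 (2.28%) and 153 were below 0.25 (2.77%). The lower bound of the interval was above 2 for 239 RNAs (4.33%), and the upper bound was below 0.5 for 403 RNAs (7.3%). The ratios ran from 0.0346 to 946. All of these counts depend on the scaling. With each library divided by its total instead, the median was 0.314, with 55 RNAs above 2 and 4243 below 0.5. With totals without the snRNAs it was 1.04, with 896 above 2 and 614 below 0.5, so the larger tail changed side. The quotient of a class median and the median of all members does not depend on the scaling, and it is given for each class.

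The snRNAs took most of the Lsm8 library. Genes with the prefix SPSNRNA held 70.6% of its reads and 2.62% of the control reads. The remaining classes were compared after removal of these genes. Genes with the prefix SPNCRNA, the non-coding RNAs, then took 21.2% of the Lsm8 reads against 11.1% of the control reads. This share counts both SPNCRNA.1531 and SPNCRNA.1532, whose annotations overlap according to the paper. When ter1, SPNCRNA.1531 and SPNCRNA.1532 were left out as well, the shares of the non-coding RNAs were 12.5% and 11.1%. IDs with none of the class prefixes, of which 4625 of 4642 included genes are protein-coding, had 81.1% and 84.2% on this last basis. Small nucleolar RNAs (prefix SPSNORNA) had 1.77% and 0.443%. Their share was the one that differed by the largest factor among the classes other than the tRNAs.

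**Figure D1:**
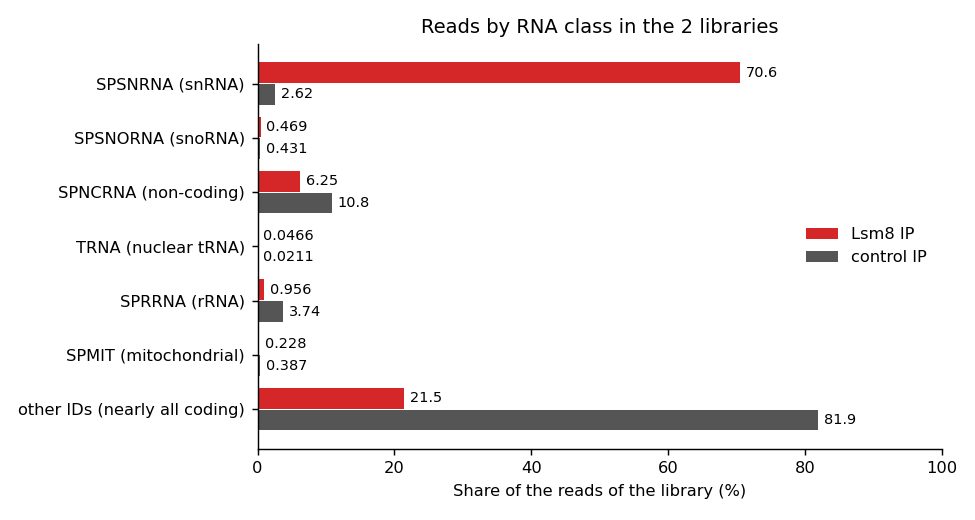
Share of the reads of each library (%, horizontal axis) by RNA class, with the Lsm8 IP in red and the control IP in grey. The snRNA prefix holds 70.6% of the Lsm8 reads and 2.62% of the control reads.

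Among the 7 genes with the snRNA prefix, 4 were above 2 and 3 were below 0.5, and none lay between. The median of the 7 was 14.6 times the median of all members. U4, the pairing partner of U6, was read 3494435 times with Lsm8 and 2889 times in the control. Its ratio was 482 (95% interval 464 to 500). U4 alone was 52.9% of the Lsm8 library. U6, the RNA with the T run in the sequences above, had 1131410 and 14329 reads and a ratio of 31.4 (30.9 to 32.0). U6 was the fourth largest RNA of the control library by reads, whereas U4 was 0.307% of it.

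U2, which pairs with the branch site, had 21883 and 450 reads, a ratio of 19.4. U5, the other snRNA of the tri-snRNP, had 10395 and 323 reads, a ratio of 12.8. U1, which pairs with the 5′ splice site, had 1953 and 2193 reads, a ratio of 0.355 (0.333 to 0.377). The U1 gene was thus on the other side of 1 from the 4 other spliceosomal RNAs, and its interval did not reach theirs. U3B (snu32) had 1049 and 3390 reads, a ratio of 0.123, and U3 (snu3) had 154 and 1136 reads, a ratio of 0.0540 (0.0453 to 0.0639). U3 was the second lowest of all 5523 ratios.

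Small nucleolar RNAs guide modification or cleavage of other RNAs, the box H/ACA kind guiding pseudouridylation. Of 53 listed genes with the SPSNORNA prefix, 18 had enough control reads. Ratios ran from 0.0843 for snR94 to 117 for snR36, with 10 of the 18 above 2, or 55.6% beside 11.3% of all members. The 3 below 0.5 were 16.7%, beside 17.4% of all members. The class median was 3.24, which is 3.70 times that of all members. This median lies between sno12 (3.14) and snR42 (3.35), and the next lower ratio was 0.934 for snR96. With at least 20 control reads the quotient was 1.12 over 15 genes, where the median fell on the lower side of this gap. The class median thus depends on which genes are included.

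The H/ACA RNAs and the other snoRNAs of this prefix differed in their medians and overlapped in their ranges. RefSeq names 12 of the 18 as box H/ACA, and their median ratio was 0.787. The other 6, whose box RefSeq does not give and which are 82 to 112 bases long, had a median of 7.15. All 6 were above 2, beside 11.3% of all members. Over every prefix, 12 RefSeq snoRNAs are not named box H/ACA, and their median was 3.91. Of these 12, 8 were above 2 (66.7%) and 3 were below 0.25, namely U3, U3B and snR191. The snoRNA snoU14 (U14, needed for the processing of 18S ribosomal RNA) was highest of the 6 with the SPSNORNA prefix. It had 6772 and 142 reads, a ratio of 19.0. Next were sno52 with 836 and 39 reads and a ratio of 8.53, and snR40 with 186 and 10 reads and a ratio of 7.41. However, sno52 overlaps taf9, which had 1099 and 82 reads and a ratio of 5.34. The box H/ACA RNA snR101, which overlaps no listed gene, had 369 and 21 reads and a ratio of 6.996 (4.51 to 11.4), within the range of the 6. The box H/ACA RNAs sno12 and snR42 had high counts and ratios of 3.14 (9931 and 1261 reads) and 3.35 (3933 and 467 reads). At the low end of the box H/ACA RNAs were snR94 with 40 and 189 reads, snR92 with 139 and 304 reads and a ratio of 0.182, and snR93 with 51 and 52 reads and a ratio of 0.390. In the middle stood snR5 at 0.510, sno20 at 0.591 and snR46 at 0.764. Here snR92 overlaps SPNCRNA.1487, and sno20 overlaps SPBC1921.04c. The H/ACA RNA snR36 reached 117 from 4393 and 15 reads, but it lies within psd1, the gene of a phosphatidylserine decarboxylase, which had 4409 and 49 reads. Unstranded reads do not separate this pair, nor the other overlapping pairs named here.

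The non-coding RNAs were the widest class. The 831 of them had ratios from 0.0553 to 946 around a median of 0.907, which is 1.03 times that of all members. Of these, 125 were above 2, or 15.04% beside 11.3% of all members, and 141 were below 0.5, or 17.0% beside 17.4%. At the top were SPNCRNA.1532 with 71287 and 30 reads, a ratio of 946 (663 to 1402), and SPNCRNA.1531 with 71324 and 35 reads, a ratio of 811 (583 to 1165). Both counts of these RNAs were close to equal, and SPNCRNA.1531 was not matched to RefSeq. The paper remarks that the annotations of these RNAs overlap each other, so they cannot be taken as separate signals. TER1 (ter1), the template RNA of telomerase, followed with 51276 and 124 reads, a ratio of 165 (138.1 to 198.0). SPNCRNA.240, which overlaps lsk1, had 9230 and 25 reads, a ratio of 147.0. Together with U4 and snR36 these were the RNAs above 100.

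At the bottom of the non-coding class was snR191, annotated by RefSeq as a snoRNA, with 39 and 281 reads and a ratio of 0.0553. It overlaps nog2 and SPNCRNA.847. Next were the overlapping RNAs SPNCRNA.242 and SPNCRNA.965, with 75 and 540 and with 77 and 545 reads. SPNCRNA.1376, which overlaps the translation elongation factor gene tef103, had 157 and 943 reads, a ratio of 0.0663. The abundant non-coding RNAs were closer to 1. SPNCRNA.2001 and SPNCRNA.2002, both overlapping tlh1, had ratios of 1.07 with nearly the same reads, 8492 and 3167 for the first. SPNCRNA.1465 was at 0.392 and SPNCRNA.870 at 0.282, and they overlap the ribosomal protein genes rps1601 and rps1101. SPNCRNA.1465 had 2696 and 2735 reads and rps1601 had 2690 and 2734, nearly the same counts. Unstranded reads do not separate this non-coding RNA from the mRNA.

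Overlap ran through the non-coding class. Of its members 782 overlap another listed gene, 26 do not and 23 were not matched. The 26 had a median ratio of 1.49, and 8 of them were above 2, or 30.8% beside 11.3% of all members. Most of the 26 had 10 to 29 control reads. All members in that range had a median of 1.22, with 23.0% above 2. Lack of overlap was not separated from low read numbers. The 3 above 4 were ter1, snoR61 (a snoRNA, 2587 and 80 reads, ratio 12.9) and SPNCRNA.1482 (209 and 19 reads, ratio 4.38). Of the 34 non-coding RNAs above 4, 28 overlap a listed gene, beside 782 of all 831 in the class, and 19 of these 28 overlap a member that was itself above 2. Of the 26 below 0.25, 23 overlap a listed gene and 17 overlap a member below 0.5. No share over the whole class is given for overlap with a member past these folds, so the 19 and the 17 are not read as traits of the tails.

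Stable structural RNAs outside the spliceosome went both ways. The 7SL RNA srp7, the RNA of the signal recognition particle, had 6024 and 3377 reads, a ratio of 0.710 (0.681 to 0.741). rrk1, the RNA of RNase P, which cuts the 5′ end of tRNA precursors, had 1481 and 235 reads, a ratio of 2.51 (2.19 to 2.89), and its gene overlaps pre10. With each library divided by its total, rrk1 was at 0.899. The RNase MRP RNA gene mrp1 had 0 reads in the Lsm8 IP and was therefore not included.

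Transfer RNAs were sparse, and 6 of 171 nuclear tRNA genes passed the minimum. SPBTRNAGLY.09, a glycine tRNA, had 1797 and 25 reads, a ratio of 28.6 (19.3 to 44.3). SPBTRNAGLN.01, a glutamine tRNA, had 2 and 23 reads and was the lowest of all members at 0.0346 (0.00396 to 0.140). The others were SPATRNAILE.02 at 3.40, spl1 (tRNA-Pro) at 2.39, SPATRNALEU.01 at 1.59 and SPBTRNAMET.05 at 0.294. The class median of 1.99 rests on genes with 12 to 15 control reads. With at least 20 control reads 3 tRNA genes remained, and the quotient turned from 2.27 to 0.352 of the median of all members.

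Ribosomal RNA genes ranged widely. Their 7 included members had a median of 0.348, which is 0.397 times that of all members. Of the 7, 4 were below 0.5, or 57.1% beside 17.4% of all members, and 1 was above 2. The quotient was 0.857 over 15 genes at a minimum of 1 control read and 0.685 over 6 genes at a minimum of 50. SPRRNA.53, a 5S ribosomal RNA gene, had 654 and 3311 reads, a ratio of 0.0786. Another 5S gene, SPRRNA.17, was highest with 1014 and 68 reads, a ratio of 5.94, and a further 5S gene, SPRRNA.12, stood at 0.685 from 573 and 333 reads. The 28S gene SPRRNA.49 had a ratio of 0.262 and the 5.8S gene SPRRNA.52 a ratio of 0.163 from 16 and 39 reads. The other 2 genes of this prefix encode the RNAs of the mitochondrial ribosome. SPRRNA.01, that of the large subunit and the gene with the most control reads of all, had 51318 and 20245 reads and a ratio of 1.01. SPRRNA.02, that of the small subunit, had 8199 and 9390 reads and a ratio of 0.348. Only reads with a single place in the genome were counted, so the 5S, 28S and 5.8S values and those of the tRNAs exclude reads shared by identical copies.

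None of the 12 included genes with the mitochondrial prefix SPMIT was below 0.5, beside 17.4% of all members, whereas SPRRNA.02 above, also mitochondrial, was. Of the 12, 3 were above 2, or 25% beside 11.3%. Their median was 1.26, or 1.44 times that of all members, and the quotient was 3.16 over 31 genes at a minimum of 1 control read. SPMITTRNASER.02, a serine tRNA by its ID, had 608 and 16 reads, a ratio of 15.1 (9.24 to 26.6). SPMIT.07 had 3001 and 202 reads, a ratio of 5.92, and SPMITTRNATYR.01 had 201 and 20 reads, a ratio of 4.001. The other 9 lay between 0.949 for SPMIT.11 (1225 and 514 reads) and 1.92 for SPMIT.10 (2265 and 469 reads). The most read of them in the control IP, SPMIT.01, had 2621 and 964 reads and a ratio of 1.08. SPMIT.05, SPMIT.08 and SPMIT.04 were at 1.21, 1.14 and 1.13.

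**Figure D2:**
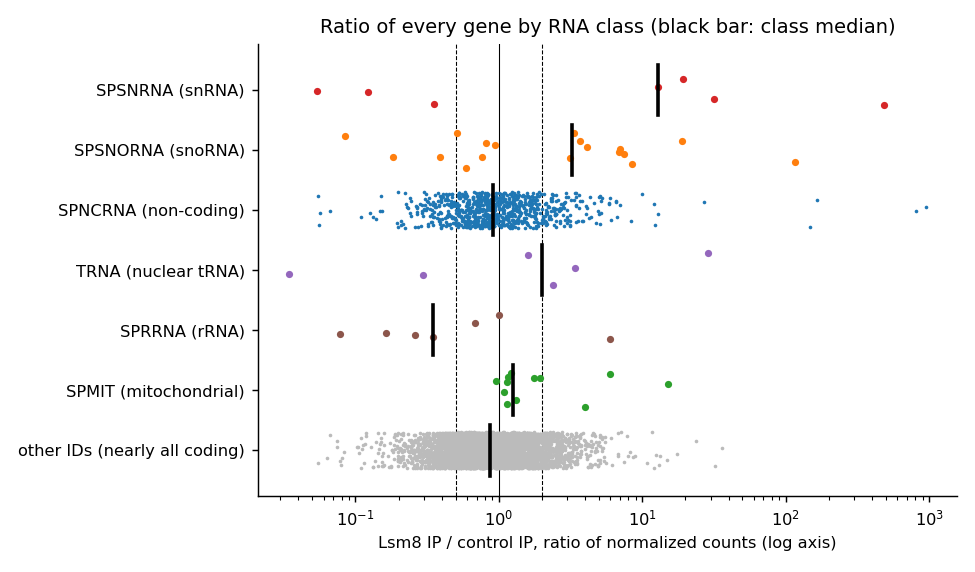
Ratio of normalized counts in the Lsm8 IP and the control IP (log axis) for each of the 5523 genes, 1 point a gene, by RNA class. Black bars are class medians and dashed lines mark ratios of 0.5 and 2. The snRNA prefix is split between ratios of at least 12.8 and at most 0.355, and the non-coding RNAs reach 946.

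The ratio was lower among abundant RNAs. Abundance was taken as the mean of both log2 normalized counts, because the control count is itself the denominator of the ratio. The median ratio was 0.986 for the 1411 RNAs between -1 and 0 on this scale, 0.871 for the 931 between 1 and 2, and 0.528 for the 176 above 4. In the last group 46.6% were below 0.5 and 6.82% above 2, with U4, U6, U2, U5 and ter1 among the latter. The Lsm8 count is part of this mean, so RNAs read often with Lsm8 can enter the group with few control reads. ter1, for example, had 124. Among RNAs with 1000 control reads or more, 1.72% were above 2 and 65.5% below 0.5. The rarest 131 RNAs, below -2, also had a low median, 0.471. The control minimum removes RNAs with few control reads at this end, so low ratios had to follow. By control reads alone the median went from 1.22 at 10 to 29 reads to 0.370 at 1000 reads or more.

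**Figure D3:**
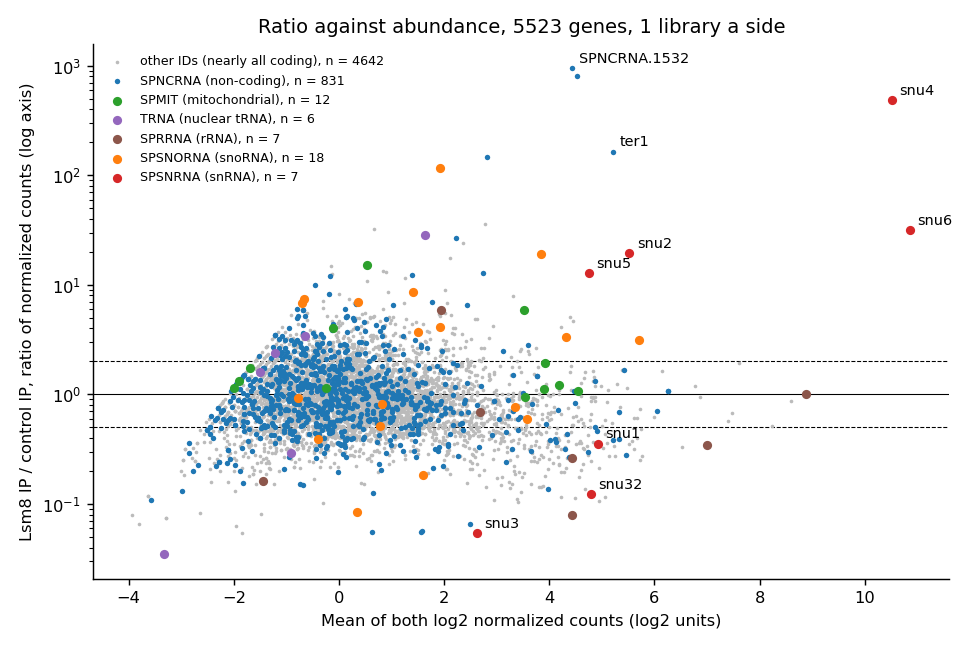
Ratio (log axis) against the mean of both log2 normalized counts for 5523 genes, coloured by RNA class, with dashed lines at 0.5 and 2. U4 (snu4) and U6 (snu6) are the most abundant points, and the bulk of the points sinks from a median of 0.986 to 0.528 towards high abundance.

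Protein-coding RNAs, 4625 of the 5523 members, made up most of both tails. Their median ratio was 0.872, with 477 above 2 (10.3% beside 11.3% of all members) and 805 below 0.5 (17.4% beside 17.4%). Above 4 were 76 of them, or 1.64% beside 2.28% of all members. At the top was psd1, with a ratio of 35.8 and the overlap named above. SPAC1952.10c, an uncharacterized gene that overlaps ure2, had 971 and 12 reads and a ratio of 32.2 (18.4 to 62.6). cox16, a cytochrome c oxidase assembly factor gene, had 2700 and 45 reads and a ratio of 23.9. The overlapping SPNCRNA.895 had 2633 and 39 reads and a ratio of 26.9. cox8, a subunit gene of the same oxidase with 3 introns that overlaps mvd1, had 1946 and 44 reads and a ratio of 17.6. All 4 of these coding genes overlap another listed gene. Overlap was not more common in this tail, at 57.9% of the coding genes above 4 beside 59.7% of all coding members.

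The lowest coding RNAs were mostly thinly read. ctu2, a tRNA thiolation gene that overlaps mrpl51, had 7 and 51 reads, a ratio of 0.0546 (0.0209 to 0.121). The elongation factor gene spt4 had 2 and 12 reads, the TFIID subunit gene taf3 and the carboxypeptidase gene sxa2 had 3 and 16 each, and SPAC27E2.14 had 2 and 10. Their intervals reached from 0.00721 to 0.374. SPAC823.02, which RefSeq does not hold, had 7 and 44 reads and a ratio of 0.0633. chc1, the clathrin heavy chain gene, had 657 and 3353 reads, a ratio of 0.0780 (0.0716 to 0.0848). These counts were close to the 654 and 3311 reads of the 5S gene SPRRNA.53, although ASM294v3 places the genes apart on chromosome I. Whether they share reads was not tested.

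Genes with introns had higher ratios than genes without. The 2302 coding members with introns had a median of 0.956, with 13.6% above 2 and 12.1% below 0.5. The 2323 without introns had a median of 0.780, with 7.10% above 2 and 22.6% below 0.5. Introns are removed by the spliceosome, in which the snRNAs above act. By number of introns the median was 0.845 for 1019 genes with 1 intron, 0.960 for 620 genes with 2, 1.08 for 345 genes with 3, 1.22 for 156 genes with 4 and 1.24 for 162 genes with 5 or more. Over the same groups the share below 0.5 went from 19.8% with 1 intron through 7.42%, 5.80% and 3.85% to 3.09%. The share above 2 went from 9.91% through 15% and 15.9% to 21.2% with 4 introns and 18.5% with 5 or more. Each step in the median was small beside the spread within a group, whose quartiles were 0.523 and 1.18 without introns and 0.913 and 1.83 with 5 or more.

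The intron pattern was looked for within levels of other measures. In all 8 bins of abundance the median with introns was above that without, by 1.11 to 1.29 times, and in all 5 bins of control reads by 1.03 to 1.31 times. By gene length it was 1.36 times at 300 to under 1000 bases, 1.32 times at 1000 to under 2000 and 1.14 times at 2000 or more. Under 300 bases there was 1 gene with introns. Among coding genes that overlap no listed gene the medians were 0.946 over 888 genes with introns and 0.751 over 974 without. With the ribosomal protein genes also left out, the medians of these non-overlapping genes were 0.780 without introns, 0.863 with 1, 1.01 with 2, 1.02 with 3, 1.18 with 4 and 1.20 with 5 or more. All these values come from the same pair of libraries and carry no replicate error.

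**Figure D4:**
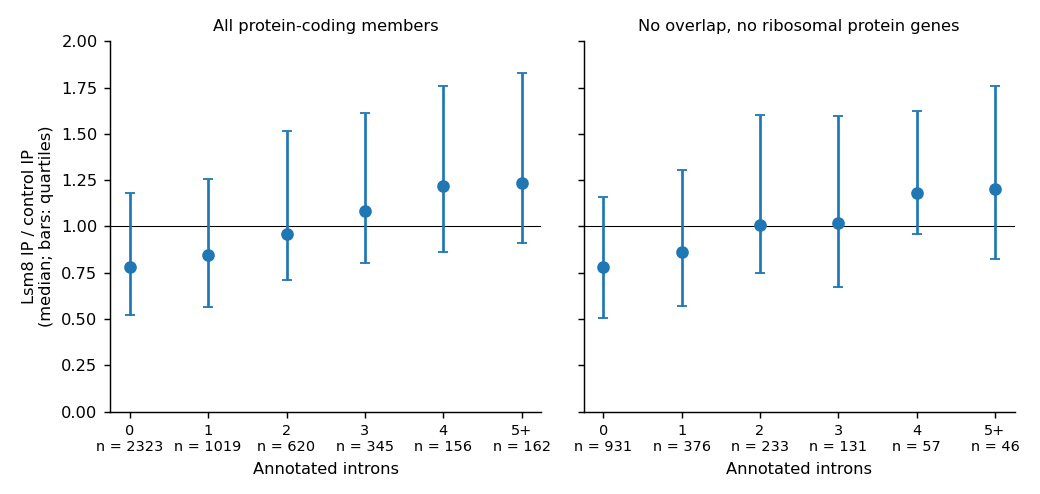
Median ratio of protein-coding genes by number of annotated introns, with quartiles as bars and the number of genes under each point, for all coding members (left) and for those without overlap and without ribosomal protein genes (right). On the left the median goes from 0.780 without introns to 1.24 with 5 or more, while the bars of neighbouring groups overlap.

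Among other coding features, length and overlap made smaller differences. The median was 0.842 for 582 genes of 300 to under 1000 bases, 0.884 for 1975 genes of 1000 to under 2000 and 0.866 for 2060 genes of 2000 or more, and the 8 genes under 300 bases had 1.41. The shortest large group, 300 to under 1000 bases, had the widest tails, with 14.3% above 2 and 28.7% below 0.5. Non-overlapping coding genes had a median of 0.841 and overlapping ones 0.887. Of 2060 overlapping pairs of members, 309 (15%) had reads within 10% of each other in both libraries, and whether these reads are shared was not tested.

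The mRNAs of ribosomal proteins stood low. All 138 listed genes were included, with a median of 0.336, which is 0.383 times that of all members. Of these, 99 were below 0.5, or 71.7% beside 17.4% of all members, and 2 were above 2, or 1.45% beside 11.3%. They also made up 26 of the 50 lowest members with at least 100 control reads, or 52.0%, and 136 of all 1563 such members, or 8.70%. Low examples were rpl2701 with 370 and 1402 reads and a ratio of 0.105, rpl2402 with 274 and 1005 and a ratio of 0.109, and rps102 with 681 and 2356 and a ratio of 0.115. The lowest, rpl1201, had 11 and 54 reads, a ratio of 0.0811. At the other end, rps1401, with 5089 and 398 reads and a ratio of 5.09, overlaps another listed gene, and rpl3002 had 316 and 60 reads and a ratio of 2.10. Many of these genes come in near-identical pairs, and reads common to a pair were not counted.

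Ribosomal protein mRNAs are abundant, and abundant RNAs were low in general. With 1000 or more control reads, 73 ribosomal protein genes had a median of 0.293 and 71 other coding genes a median of 0.480. With 300 to under 1000 control reads the medians were 0.415 over 57 and 0.598 over 244 genes. In each of these bins the quartiles of the groups overlapped. Among the ribosomal protein genes the 75 with introns had a median of 0.430 and the 63 without a median of 0.258.

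**Figure D5:**
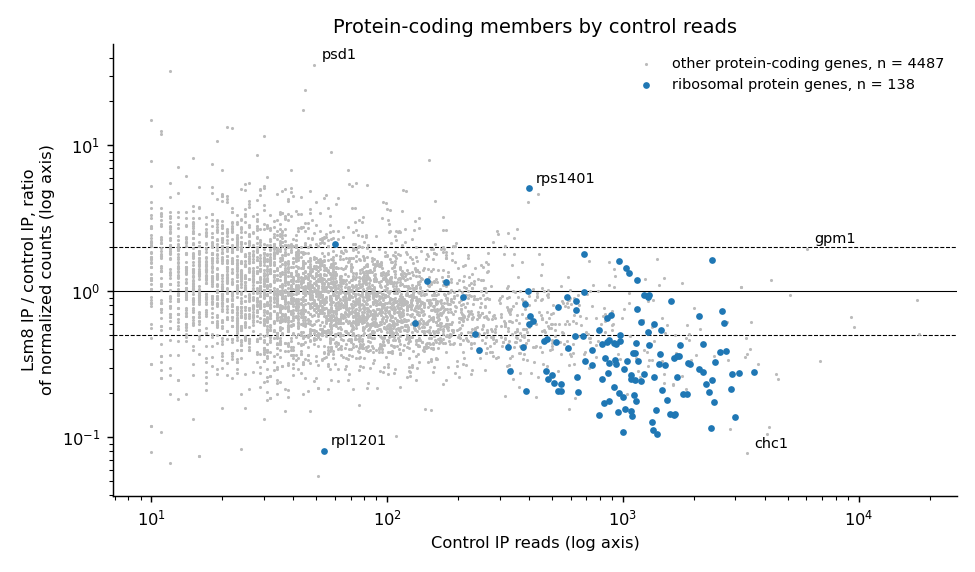
Ratio (log axis) against control reads (log axis) for 4625 protein-coding genes, with ribosomal protein genes in blue, other coding genes in grey and dashed lines at 0.5 and 2. Most ribosomal protein genes lie under the dashed line at 0.5, with a median of 0.336, and rps1401 stands apart at 5.09.

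Other abundant mRNA groups were less low. The 12 glycolysis genes had a median of 0.637, with 2 below 0.5, or 16.7% beside 17.4% of all members, and none above 2, beside 11.3%. The enolase gene eno101 had 23120 and 18049 reads, a ratio of 0.510, and the glyceraldehyde-3-phosphate dehydrogenase gene tdh1 had 39023 and 17759, a ratio of 0.875. pgk1, the phosphoglycerate kinase gene, was at 0.569, the aldolase gene fba1 at 0.670, and the phosphoglycerate mutase gene gpm1 highest at 1.95. The lowest were pfk1 at 0.360 and gpd3 at 0.384. pdc101, a pyruvate decarboxylase gene outside this list with 6832 control reads, had a ratio of 0.333. The 10 core histone genes had a median of 1.19, from 0.308 for hht1, an H3 gene, to 2.33 for hht2, another H3 gene.

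The mRNAs of the Lsm ring itself differed from each other. lsm8, whose gene carries the tag, had 90 and 12 reads, a ratio of 2.99 (1.63 to 5.99). lsm2 had 246 and 26 reads, a ratio of 3.77 (2.51 to 5.88). The other members of the ring were lsm6 at 1.25, lsm3 at 1.18, lsm4 at 0.885, lsm5 at 0.338 and lsm7 at 0.322. lsm1, which belongs to the cytoplasmic ring, was at 0.913. Thus 2 of the 8 were above 2, where 11.3% of all members were, and 2 were below 0.5, where 17.4% were. Counting intervals of lsm2 and lsm8 overlapped each other.

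None of the 7 Sm protein genes was above 2, beside 11.3% of all members, and 2 were below 0.5, beside 17.4%. With 7 genes these counts are near the shares of all members. They ran from smd1 at 0.411 and smd3 at 0.424 through smg1 at 0.589, smd2 at 0.649, smb1 at 0.676 and sme1 at 0.901 to smf1 at 1.005. Of the telomerase protein genes, trt1, the reverse transcriptase gene with 15 introns, had 181 and 37 reads and a ratio of 1.95 (1.36 to 2.85). pof8 had 37 and 20 reads, a ratio of 0.737 (0.417 to 1.34), an interval that includes 1. est1 had 35 and 9 reads and fell short of the minimum by 1 read.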

How the data were processed

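The authors aligned 40 bp unstranded reads of 1 Lsm8 IP and 1 control IP library with STAR 2.5.2b to ASM294v2 and counted reads with a single place in the genome for each gene, on either strand, after correcting the annotation of snu4. They deposited a signal, the Lsm8 IP count divided by the median count of its library, and its ratio to the control IP. A mark of enriched genes made by the authors and the table of the pof8 deletion experiment were not used.

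Multiplying the deposited signal by 96 gave Lsm8 reads, and 37 times the quotient of signal and ratio gave control reads, whole within 3.26e-09 of a read. Of 7014 genes, 6323 had reads in both libraries, 157 in the Lsm8 IP only, 98 in the control IP only and 436 in neither, and 800 of the 6323 had under 10 control reads. Counts of the 98 genes could not be recovered. They were placed below the control median and left out of its total. Control reads thus come from the ratio, so the control column was not read directly.

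Classes are ID prefixes. Introns, length (introns included), products and overlap with another listed gene come from RefSeq ASM294v3, matched by ID for 5476 of 5523 members and for no SPMIT gene. Its coordinates served for overlap, length, gene position and the sequences shown, and none is printed, since the files use ASM294v2. rpp1, rpp21 and rpp40, which encode RNase P and MRP proteins, were left out of the ribosomal protein list.

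With 1 library a side, no count test such as a dispersion-based fit was possible. The calculation of the ratio and its interval was run on simulated counts with counting (Poisson) error only. Genes with few control reads were simulated with more reads than they had. The run thus does not check their intervals, and it does not cover error between libraries. Named genes are all snRNA-prefix members, the 15 highest and 15 lowest ratios, the 4 highest, the 4 lowest and the 5 with most control reads in each class, and the members of the structural RNA, Lsm, Sm and telomerase lists. Others, among them the examples of the ribosomal protein, histone and glycolysis lists, pof2, rim1, snR101, snoR61 and SPNCRNA.1482, were chosen after their values were seen. Members and lists were chosen with earlier results of these data known. Alternatives covered scaling, control minimum, overlap, pseudocount, fold and interval bound. Tools were SciPy 1.17.1 with NumPy 2.4.6 for intervals, pandas 2.3.3 for tables, and Matplotlib 3.10.9, under Python 3.11.15.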

Additional observations from a re-analysis of the deposited data

How the results depend on the processing

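No paired analysis was possible because the comparison has 1 library a side and no test, and leaving out a replicate was not possible for the same reason. The number of RNAs with a ratio above 2 was 625 of 5523. It was 1005 of 6323 genes with a minimum of 1 control read and 138 of 2912 with 50. Without overlapping genes it was 219 of 1920, or 11.4% beside 11.3% of all members. Over all 5523 it was 1127 at a fold of 1.5 and 126 at a fold of 4. The lower bound of the interval gave 239, and scaling each library by its total gave 55. The number below 0.5 was 963. Without overlapping genes it was 416 of 1920, or 21.7% beside 17.4% of all members. Over all 5523 it was 1774 at a fold of 1.5, 153 at a fold of 4 and 403 by the interval. The total gave 4243, and the total without snRNAs gave 614 (896 above 2). The median ratio of 0.877 was 0.314 with the total, and the other alternatives kept it from 0.754 to 1.04. Relative to the median of all members, the non-coding median was 1.76 without overlapping genes. That of rRNA genes was 0.857, 0.416 and 0.685 at minimums of 1, 20 and 50 control reads and 0.308 without overlapping genes. That of snoRNAs was 1.12 at 20 reads, 1.04 at 50 and 3.82 without overlapping genes, and that of snRNAs 17.0 at 50. The tRNA median turned from 2.27 to 0.352 at 20 reads, where 3 genes were left, and had no value at 50. That of SPMIT genes was 3.16 at a minimum of 1 read. Mitochondrial genes were not matched to RefSeq, so their overlap was not read. Ribosomal protein genes were at 0.445 with 50 control reads, with 0.383 in the main setting. The quotient was 0.669 for the 381 most abundant RNAs, and 0.602 for the 176 above 4 alone. It was 0.579 over the 521 RNAs with at least 300 control reads. The quotients of coding genes stayed from 1.05 to 1.12 with introns and from 0.875 to 0.898 without introns, also when ribosomal protein genes were left out. These alternatives for intron and ribosomal protein groups were added after seeing the data. Of 90 named RNAs, 15 went from above 1 to below 1 with the total, among them 2 with a ratio above 2, rrk1 (0.899) and spl1 (0.856). With the total without snRNAs 5 went from below to above 1. Apart from rrk1 and spl1, 83 left their counting interval with the total, 36 with the total without snRNAs, 7 with the medians taken over every listed gene and none with the other settings. Where the setting does not itself change the genes or the scale, the cause was not tested. The control library had the lower median, 53 reads a gene, and error between replicates was not measured.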

Other observations

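Some RNAs fell under the minimum of 10 control reads with clear counts in the Lsm8 IP. SPNCRNA.1651 was read 357 times with Lsm8 and 3 times in the control, a ratio of 47.4 with a 95% counting interval from 16.1 to 230.8. SPMIT.09 had 353 and 7 reads (ratio 20.1, 9.64 to 50.3), SPNCRNA.1596 had 337 and 9 (14.9, 7.76 to 32.9) and SPNCRNA.1038 had 275 and 5 (21.9, 9.27 to 68.0). The snoRNA snoR56 had 228 and 8 reads, a ratio of 11.3 (5.66 to 26.6), and snR33 had 143 and 8, a ratio of 7.12 (3.52 to 16.8). The alanine tRNA gene SPATRNAALA.06 had 143 and 4 reads, a ratio of 14.2 (5.44 to 53.0). Of the 800 genes with 1 to 9 control reads, 380 had a ratio above 2, or 47.5% beside 11.3% of all members. A lower bound above 2 was found for 67 of the 800, beside 239 of the 5523 members. This set was taken for few control reads, the denominator of the ratio, so high ratios had to follow. The highest count among the 157 genes read in the Lsm8 IP only was 72. These genes were named after their values were seen.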
